A study of Mus musculus with 18 samples.

Results

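Small nucleolar RNA (snoRNA) host transcripts are spliced RNAs whose introns carry the snoRNAs that guide the chemical modification of ribosomal RNA. The 7 hosts described here, Gas5, Snhg1, Snhg3, Snhg5, Snhg6, Snhg8 and Snhg12, were taken from a list of symbols that was drawn up with earlier results of these data known, by a rule that sets no threshold on their counts, and matched to the gene identifiers of the count table through Gencode M21. All 7 were measured among the 51467 genes of the table, and all 7 were among the 12705 genes that passed the filter of at least 3 CPM (counts scaled to the size of the library) in at least 3 libraries. In wild-type cells these transcripts were 8.91-fold (Snhg3) to 25.5-fold (Snhg12) less abundant in the high polysome fraction than in the monosome fraction, and in Ddx6 KO cells their levels, averaged over the fractions, were 35.2% (Snhg8) to 62.6% (Snhg12) of wild-type. No change of their distribution along the gradient between the genotypes passed the threshold.

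Once a host has been transcribed and spliced, the introns are trimmed to mature snoRNAs and the joined exons are left as a short RNA with no long reading frame. In mammalian cells the exons of several hosts are known to reach the cytoplasm, to be bound by ribosomes on short reading frames, and to be degraded by nonsense-mediated decay, which removes RNAs whose translation stops early. Gas5 and several of its relatives are also known as members of the 5′ terminal oligopyrimidine class, whose transcripts start with a run of pyrimidines. DDX6 is a DEAD-box RNA helicase that links translational repression with decapping and decay.

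The cells were V6.5 mouse embryonic stem cells (ESCs) cultured in medium that held 15% serum, LIF and the inhibitors known as 2i. They were either wild-type (WT) or carried a CRISPR-Cas9 disruption of Ddx6 (Ddx6 KO). The paper describes 2 KO clones, one with a single inserted nucleotide and the other with a large deletion. Ribosomes were arrested with 100 µg/ml cycloheximide for 2 min in both genotypes, lysates were spun through 10 to 50% sucrose gradients, and the monosome, low polysome (2 to 4 ribosomes) and high polysome (4 or more ribosomes) fractions were collected. There were 3 gradients of each genotype, hence 18 libraries and 6 groups of 3. The first KO gradient was made from clone 1 and the other KO gradients from clone 2, so that clone 1 rests on a single gradient. The labels do not tie a WT gradient to a KO gradient, nor do they state that the WT gradients came from separate cultures. P-values measure the spread between the libraries of a group, pooled over the 6 groups, and not between cultures known to be independent. The 3 fractions of a gradient entered the main fit as independent libraries.

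The identity and position of each host were taken from Gencode M21 on GRCm38. Gas5 (ENSMUSG00000053332.13) lies on chromosome 1 from 161034422 to 161038539 on the plus strand and encloses 10 annotated snoRNA genes. Snhg1 (ENSMUSG00000108414.1) lies on chromosome 19 from 8723475 to 8726443 on the plus strand, with 8 snoRNA genes. Snhg3 (ENSMUSG00000085241.7) lies on chromosome 4 from 132348014 to 132353686 on the minus strand, with 2 snoRNA genes that belong to the Snora73 family. The same chromosome carries Snhg12 (ENSMUSG00000086290.8) from 132308623 to 132311024 on the plus strand, with 5 snoRNA genes. Snhg5 (ENSMUSG00000097195.9), with Snord50a and Snord50b, lies on chromosome 9 from 88521050 to 88522929 on the minus strand. Snhg6 (ENSMUSG00000098234.7), with Snord87, lies on chromosome 1 from 9941959 to 9944118 on the minus strand. Snhg8 (ENSMUSG00000104960.1), with Snora24, lies on chromosome 3 from 123507552 to 123508404 on the minus strand. The annotation types Snhg6 and Snhg12 as lincRNA and the other 5 as processed transcript. The annotated transcript with most exons was 332 nt (Snhg3) to 781 nt (Snhg5) long and had 3 (Snhg8) to 12 (Gas5) exons. Its longest reading frame that begins with AUG had between 35 codons in Snhg8 and 66 codons in Snhg5, which was 20.3% (Snhg1) to 38.0% (Snhg3) of the transcript. No other non-snoRNA gene shared exon bases with a host on the same strand.

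The start of the transcript is shown because members of the oligopyrimidine class are defined there. RefSeq gives a promoter entry for 6 of the 7 hosts and 2 of them for Gas5. Each window on GRCm38.p6 holds 10 bases before the annotated start and 20 bases from it, on the strand of the gene, and capitals mark the longest run of C and T.
Gas5, chr1:161034591-161034620 (+): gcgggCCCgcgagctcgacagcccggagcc
Gas5, chr1:161035156-161035185 (+): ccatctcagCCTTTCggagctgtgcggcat
Snhg1, chr19:8723477-8723506 (+): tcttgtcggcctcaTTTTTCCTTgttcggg
Snhg3, chr4:132353667-132353696 (-): gaccacgcctgaCTTCCgggcgttacttaa
Snhg5, chr9:88522878-88522907 (-): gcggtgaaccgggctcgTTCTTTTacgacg
Snhg8, chr3:123508317-123508346 (-): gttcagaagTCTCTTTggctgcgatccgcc
Snhg12, chr4:132308668-132308697 (+): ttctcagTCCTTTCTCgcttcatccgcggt
The longest run was 9 bases in Snhg1 and Snhg12, 7 in Snhg5 and Snhg8, 6 at the second Gas5 start, 5 in Snhg3 and 3 at the first Gas5 start, against a median of 4 over the 32851 windows of the same length. A run of at least 7 bases was present in 4 of the 7 windows and in 17.9% of all windows. A C at the annotated start followed by 4 or more pyrimidines was present in 2 of the 7 windows, those of Snhg8 and the second Gas5 start, and in 2.51% of all windows. The search read the sense strand only. A run near the start is a description of these letters and does not show that the annotated base is the one used in these cells.

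Libraries held 2543617 to 11474550 gene counts, and the WT monosome libraries were the shallowest. Each of the 7 hosts was counted in every library, from 54 counts of Snhg12 in a KO high polysome library to 8346 counts of Gas5 in a WT monosome library. Ddx6 itself was at 143 to 212 CPM in the WT libraries, at 55.3 to 82.7 CPM in the 3 libraries of clone 1 and at 9.68 to 26.7 CPM in the 6 libraries of clone 2, although 3′ end reads do not read the edited site. These are RNA levels, and the paper found no DDX6 protein in either clone by western blot. The 5 ESC markers summed to 753 to 1688 CPM in WT and 766 to 1747 CPM in KO libraries. Summed feeder fibroblast markers were at 1.30 to 4.79 CPM in WT and 2.63 to 6.25 CPM in KO, with Col3a1 at 0 everywhere, and the 3 endoderm markers were at 1.99 to 6.42 and 2.10 to 8.46 CPM. The epiblast-like list, in which 2 of 3 genes passed the filter and Fgf5 was at 0 everywhere, was at 90.8 to 119 CPM in WT and 26.2 to 61.9 CPM in KO. Its part in the results below was not tested. Levels are scaled within each library and so compare a gene with the rest of that library, and in bulk lysates a lower level per cell cannot be told apart from fewer cells that carry the transcript.

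Within their groups 3 libraries stood apart, namely WT low polysome 3, KO low polysome 2 and KO high polysome 3. They were singled out after the values had been seen, starting from low Snhg6 counts. In them 179, 112 and 60 of the tested genes lay more than 1 log2 unit below the group mean. The same count was 1 to 86 in the other 15 libraries, highest in the shallow WT monosome 1. Deviations from the group means over the 12705 genes correlated between these 3 libraries with Pearson r of 0.44, 0.56 and 0.56, values that describe genes of the same libraries and not replicates. Of all tested genes 189 were at least 0.5 log2 units low in all 3, and Snhg6 was the only one of the 7 hosts among them. The larger shifts of Snhg6, Snhg8 and Snhg3 without these libraries are given beside the result, and the cause of the pattern was not tested. Fits without them describe how far a result rests on these libraries. They are no independent test, least of all for Snhg6, from which the choice started.

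**Figure D1:**
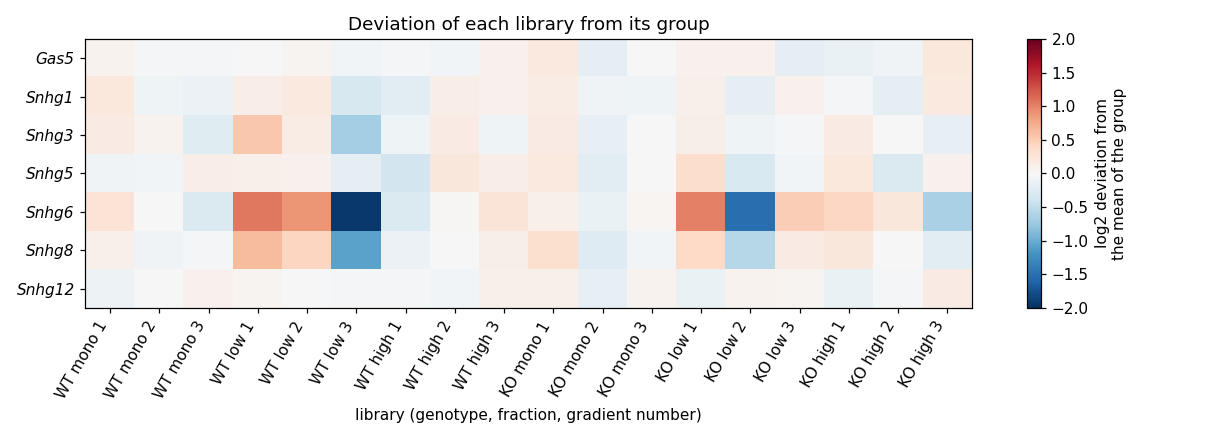
Log2 deviation of each of the 18 libraries (columns) from the mean of its group for the 7 hosts (rows), with red above and blue below the group mean. Snhg6 and Snhg8 are low in WT low polysome 3 and KO low polysome 2, while Gas5 and Snhg12 stay close to their group means.

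The first question was where the host transcripts sit in the gradient. In wild-type cells each of the 7 was most abundant in the monosome fraction and least abundant in the high polysome fraction when the group means were compared. Gas5, the host with most snoRNAs here, was at 1847, 1720.3 and 1729 CPM in the 3 WT monosome libraries. The low polysome of the same gradients held 478, 491 and 456 CPM, and the high polysome held 115, 113 and 125 CPM. The groups did not overlap, and each gradient stepped down in the same order. The log2 difference between the high polysome and the monosome was -3.91 (SE 0.12), a 15.0-fold lower level (adjusted p = 2.5e-15, limma with Benjamini-Hochberg adjustment over all tested genes).

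Snhg1, which carries 8 snoRNA genes including Snord22, was at 1349, 1100.2 and 1082 CPM in the WT monosome. Low polysome libraries held 467, 488 and 342 CPM, and those of the high polysome 72.6, 92.3 and 89.4 CPM. The fractions did not overlap, and the high polysome was 13.8-fold below the monosome (log2 difference -3.79, SE 0.15). Snhg3, the host of the Snora73 snoRNAs, which act in the processing of the ribosomal RNA precursor, was at 469.9, 440.0 and 353 CPM in the WT monosome. It was at 241, 184 and 103 CPM in the low polysome, with the lowest value again in the library that stood apart, and at 44.3, 52.3 and 44.2 CPM in the high polysome. Without the 3 libraries that stood apart its WT low polysome difference from the monosome moved from -1.33 to -0.97 (SE 0.14). Of the 7 hosts it had the smallest WT difference between high polysome and monosome, with a log2 value of -3.15 (SE 0.21).

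Snhg5, host of the Snord50 pair, was at 398, 400.5 and 456 CPM in the WT monosome. In the WT low polysome it was at 116.5, 115.5 and 95.6 CPM, and in the high polysome at 26.2, 39.9 and 37.2 CPM. The 3 fractions did not overlap, and the high polysome was 12.2-fold below the monosome (log2 difference -3.61, SE 0.18). Snhg12, which hosts Snora44, Snora61 and Snord99 among others, was at 198, 214 and 224 CPM in the WT monosome. The low polysome held 51.7, 49.7 and 48.5 CPM of it, and the high polysome 7.96, 7.90 and 8.85 CPM. This gave the largest WT difference of the 7, with a log2 value of -4.67 (SE 0.15).

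Snhg8, host of Snora24, was at 939, 831 and 847 CPM in the WT monosome. Its low polysome values were 186, 160.5 and 56.6 CPM, the last from the library that stood apart, and its high polysome values were 34.1, 36.9 and 40.1 CPM. The high polysome was 23.5-fold below the monosome (log2 difference -4.55, SE 0.31). Snhg6, host of Snord87, was at 714, 598 and 486 CPM in the WT monosome. The low polysome held 132, 118 and 16.2 CPM, and the high polysome 27.9, 34.6 and 41.0 CPM, so that in gradient 3 the low polysome value lay below the high polysome value. Its high polysome level was 17.2-fold below the monosome (log2 difference -4.10, SE 0.55). Without the 3 libraries that stood apart these WT high polysome differences were -4.50 (SE 0.14) for Snhg8 and -4.05 (SE 0.16) for Snhg6.

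**Figure D2:**
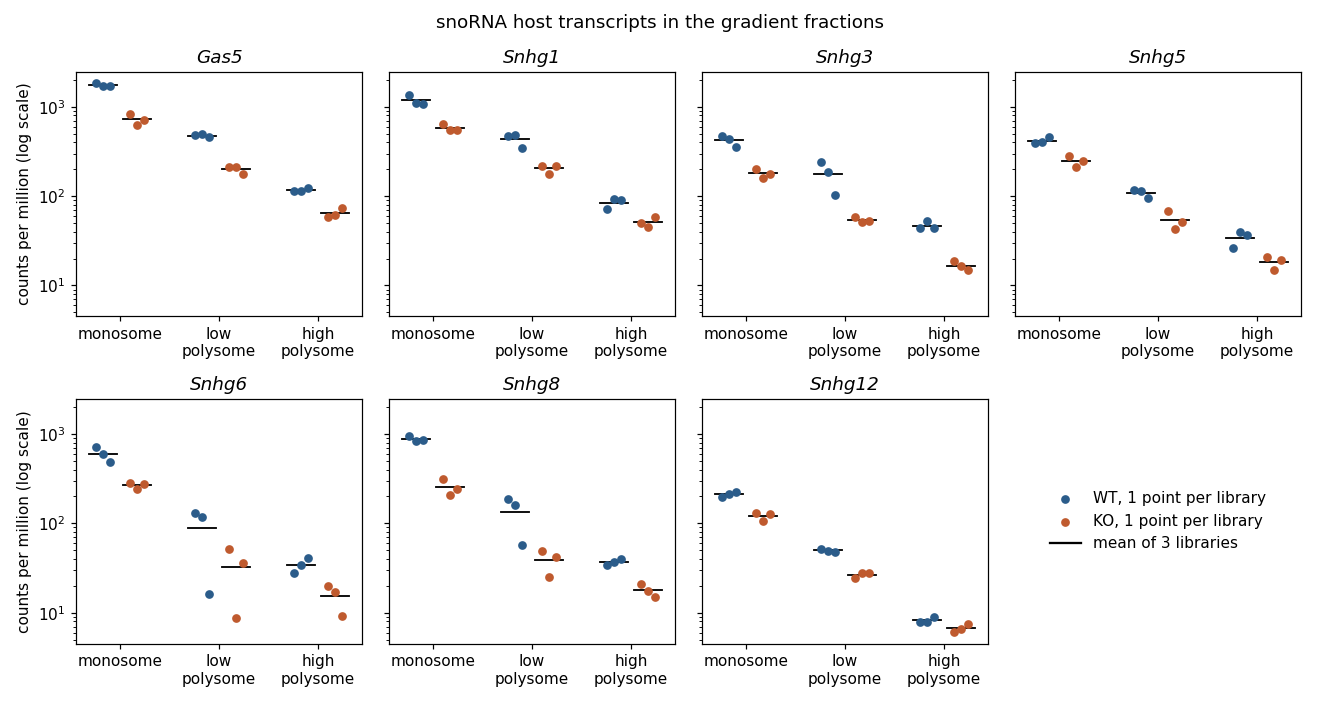
Level of each host in TMM-scaled CPM (log axis) by fraction, with 1 point per library, WT in blue and KO in orange, and a bar at the mean of 3 libraries. Every host steps down from monosome to high polysome, and all KO monosome points lie below all WT monosome points.

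All 7 hosts were called lower in the WT high polysome than in the monosome, where 32.2% of the 12705 genes were called lower and 28.9% higher. They were also all lower in the WT low polysome than in the monosome, with log2 differences from -1.33 (Snhg3) to -3.23 (Snhg6), against 22.8% of genes called lower. The Snhg6 and Snhg8 values rest in part on WT low polysome 3. Without the 3 libraries that stood apart, Snhg6 was at -2.23 (SE 0.16) and Snhg8 moved from -2.87 to -2.32 (SE 0.14). Between high and low polysome 6 of the 7 were lower, against 32.6% of genes. The exception was Snhg6, with a log2 difference of -0.88 (95% interval -2.07 to 0.31, adjusted p = 0.19 in limma). Without the 3 libraries this Snhg6 difference was -1.82 (SE 0.18), and that of Snhg8 moved from -1.68 to -2.18 (SE 0.16). The narrower spread follows in part from leaving out values that had been noticed for being low.

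The same order was found in the Ddx6 KO gradients. All 7 hosts were lower in the KO high polysome than in the monosome, with log2 differences of -3.43 (Snhg3) to -4.19 (Snhg6), against 33.6% of all genes called lower. All 7 were also lower in the KO low polysome than in the monosome, by -1.51 (Snhg1) to -3.34 (Snhg6) on the log2 scale, against 20.8% of genes. The Snhg6 value rests in part on KO low polysome 2 and was -2.62 (SE 0.17) without the 3 libraries that stood apart, while Snhg8 moved from -2.75 to -2.47 (SE 0.16). Between high and low polysome 6 of the 7 were lower, against 28.0% of genes, and Snhg6 was again the exception with -0.85 (95% interval -2.25 to 0.56, adjusted p = 0.29 in limma), or -1.28 (SE 0.22) without the 3 libraries. The Snhg8 difference of -1.09 (adjusted p = 0.013 in limma), or -1.30 without the 3 libraries, rested on the KO gradients used, since it did not pass without gradient 1 (adjusted p = 0.070) or without gradient 3 (adjusted p = 0.15). Counted over single gradients, 6 of the 7 hosts stepped down from monosome to low polysome to high polysome in each of the 6 gradients, and 6.53% of the tested genes did so. Snhg6 did not, because of WT gradient 3 and KO gradient 2.

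Between the gradients of a genotype the log2 ratios of high polysome over monosome had an SD of 0.06 (Snhg12) to 0.55 (Snhg6) in WT. In KO the SD was 0.07 (Snhg5) to 0.59 (Snhg6). Ratios of high over low polysome spread more for some hosts, with a WT SD of 0.13 (Snhg12) to 1.92 (Snhg6). On the log2 scale with a pseudocount of 0.5 CPM, the high polysome over monosome ratios of Gas5 were -4.00, -3.93 and -3.79 for WT and -3.83, -3.36 and -3.27 for KO. The 2 sets overlapped at KO gradient 1. For Snhg12 the WT ratios were -4.55, -4.67 and -4.58 and the KO ratios -4.32, -3.93 and -3.99, without overlap. For Snhg8 the WT ratios were -4.76, -4.47 and -4.38 and the KO ratios -3.89, -3.53 and -3.99, also without overlap. No share of all genes without overlap is given for ratios. Neither Snhg12 nor Snhg8 passed the main test of this shift, given below. Snhg5 had WT ratios of -3.90, -3.31 and -3.60 and KO ratios of -3.73, -3.81 and -3.66, which overlapped. Snhg3 had WT ratios of -3.39, -3.06 and -2.99 and KO ratios of -3.40, -3.24 and -3.55, and Snhg1 had WT ratios of -4.21, -3.57 and -3.59 and KO ratios of -3.67, -3.62 and -3.21. Both pairs overlapped. Snhg6 spread widely in both genotypes, from -4.66 to -3.55 in WT and from -4.82 to -3.77 in KO.

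**Figure D3:**
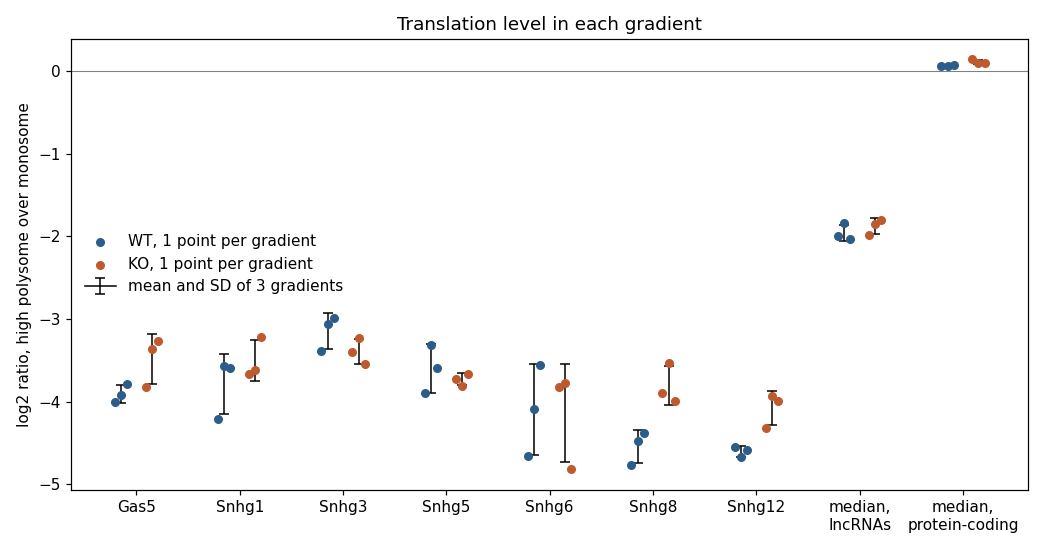
Log2 ratio of high polysome to monosome in each gradient for the 7 hosts and, at the right, the median over 447 lncRNAs and over 11773 protein-coding genes. Points are gradients, WT in blue and KO in orange, and error bars are the mean and SD of 3 gradients. The hosts lie between -4.82 and -2.99, below the lncRNA medians near -2 and the protein-coding medians near 0.

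Long non-coding RNAs (lncRNAs) as a class were also depleted from polysomes, so the hosts were placed among them. The median over 447 tested lncRNAs, the 7 hosts included, was -1.96 ± 0.10 (SD, n = 3 gradients) in WT and -1.88 ± 0.10 in KO, while the median over the 7 hosts was -3.91 ± 0.30 and -3.70 ± 0.11. Protein-coding genes had a median of 0.06 in WT and 0.11 in KO. These ratios carry the pseudocount of 0.5 CPM. In the fit the median over the other 440 lncRNAs was -2.32 in WT and -2.41 in KO. The size of the gap to the hosts and the direction of the small KO difference of the lncRNA medians thus depend on the measure. Of the 447 lncRNAs, 30 had a lower fitted WT ratio than Snhg12 and 130 had a lower ratio than Snhg3, the ends of the range of the hosts. Over all tested genes the hosts stood in the lowest 0.496% (Snhg12) to 2.39% (Snhg3) of WT high polysome over monosome differences. These ranks are descriptions of a list that was drawn up with such transcripts in mind.

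The second question was whether loss of Ddx6 changed the abundance of the host transcripts. All 7 were called lower in KO than in WT when the difference was averaged over the 3 fractions, where 31.5% of the tested genes were called lower and 30.6% higher. This average weighs the fractions equally and is not the level in unfractionated RNA. Its SE and p-values take the 3 fractions of a gradient as independent libraries, although they are paired by design. The log2 difference was -1.51 (SE 0.18) for Snhg8, -1.44 (SE 0.13) for Snhg3, -1.22 (SE 0.34) for Snhg6, -1.14 (SE 0.07) for Gas5, -0.93 (SE 0.09) for Snhg1, -0.90 (SE 0.10) for Snhg5 and -0.68 (SE 0.08) for Snhg12. The remaining level was thus 35.2% of WT for Snhg8, 45.2% for Gas5 and 62.6% for Snhg12. The adjusted p was largest for Snhg6, at 0.0041 in limma. The size of the difference depended on how the fractions were combined. When the counts of the fractions were added up for each gradient, so that deeper libraries weighed more and the shallow WT monosome libraries less, all 7 hosts were still called lower, but the log2 differences were -1.21 (SE 0.13) for Snhg8, -0.81 (SE 0.11) for Gas5 and -0.33 (SE 0.11) for Snhg12, with a median of -0.65 in place of -1.14. Without the 3 libraries that stood apart Snhg6 was at -1.21 (SE 0.11) and Snhg8 at -1.58 (SE 0.09).

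Within the monosome, where the hosts are most abundant, all KO libraries lay below all WT libraries for 7 of 7 hosts, as for 27.0% of all tested genes. Gas5 was at 827, 632 and 712 CPM in KO gradients 1 to 3, against 1720.3 to 1847 CPM in WT, with a log2 difference of -1.29 (SE 0.12). Snhg8 was at 315, 210.3 and 244 CPM, against 831 to 939 CPM, and showed the largest monosome difference, -1.78 (SE 0.29), which was -1.76 (SE 0.13) without the 3 libraries that stood apart. Snhg1 was at 645, 555 and 549 CPM in KO, about 49.7% of WT in the fit. Snhg3 was at 202, 159.9 and 179 CPM in KO, against 353 to 469.9 CPM in WT (log2 difference -1.22, SE 0.20).

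Snhg5 was at 285, 214 and 250.4 CPM in the KO monosome and had the smallest monosome difference, -0.75 (SE 0.16), against 398 to 456 CPM in WT. Snhg12 was at 129, 107 and 126 CPM, against 198 to 224 CPM in WT, a difference of -0.82 (SE 0.11). Snhg6 was at 285, 243 and 273 CPM in KO and at 486 to 714 CPM in WT. Although its monosome groups did not overlap, the Snhg6 difference of -1.15 (SE 0.51, 95% interval -2.21 to -0.08) did not pass (adjusted p = 0.081 in limma), since limma weighs the spread of Snhg6 over all 6 groups, the low polysome included. In a fit of the WT and KO monosome libraries alone Snhg6 differed by -1.13 (adjusted p = 2.9e-07 in limma). Without the 3 libraries that stood apart, a choice that started from low Snhg6 counts, it differed by -1.13 (SE 0.14). In all, 6 of the 7 hosts were called lower in the KO monosome, against 20.1% of genes.

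In the low polysome 6 of the 7 were called lower in KO, against 24.3% of genes. Gas5 was at 212, 210.5 and 176 CPM in KO, Snhg1 at 219, 179 and 218 CPM, Snhg3 at 59.1, 51.0 and 52.8 CPM and Snhg12 at 24.3, 28.0 and 27.8 CPM, each below all 3 WT libraries. Snhg5, at 68.1, 43.2 and 51.3 CPM, and Snhg8, at 49.5, 25.1 and 41.8 CPM, were also below all WT values. The log2 differences of these 6 ran from -0.90 (Snhg12) to -1.66 (Snhg8), and without the 3 libraries Snhg8 was at -1.92 (SE 0.17) and Snhg3 at -1.91 (SE 0.16). Snhg6 was at 52.1, 8.73 and 36.4 CPM in KO and overlapped WT, whose lowest library was at 16.2 CPM. Its difference was -1.26 (SE 0.60, adjusted p = 0.086 in limma), and -1.52 (SE 0.19) without the 3 libraries that stood apart. The latter SE is narrow in part because low Snhg6 values were left out. KO lay below WT without overlap for 6 of the 7 hosts in this fraction, as for 26.1% of genes.

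In the high polysome 5 of the 7 were called lower in KO, against 21.1% of genes, and KO lay below WT without overlap for 7 of 7, as for 26.1% of genes. Gas5 was at 57.9, 61.0 and 73.5 CPM in KO, a log2 difference of -0.88 (SE 0.13). Snhg3 was at 18.7, 16.5 and 14.8 CPM, a difference of -1.49 (SE 0.25), the largest in this fraction. Snhg5 was at 21.05, 14.8 and 19.3 CPM and Snhg1 at 50.3, 44.8 and 58.7 CPM. Snhg8 was at 20.7, 17.7 and 14.9 CPM (difference -1.07, adjusted p = 0.017 in limma), and the call was lost without KO gradient 3 (adjusted p = 0.081).

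The remaining hosts of the high polysome did not pass. Snhg12 was at 6.01, 6.52 and 7.47 CPM in KO and at 7.90 to 8.85 CPM in WT. Its groups did not overlap, but the difference of -0.31 had a 95% interval of -0.68 to 0.07 (adjusted p = 0.17 in limma). Snhg6 was at 19.7, 17.3 and 9.21 CPM in KO and at 27.9 to 41.0 CPM in WT, with a difference of -1.23 (95% interval -2.60 to 0.13, adjusted p = 0.13 in limma). Without the 3 libraries that stood apart, a choice that started from low Snhg6 counts, it was -0.98 (SE 0.21). For 6 of the 7 hosts all KO libraries lay below all WT libraries in each of the 3 fractions, which held for 10.2% of the tested genes.

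**Figure D4:**
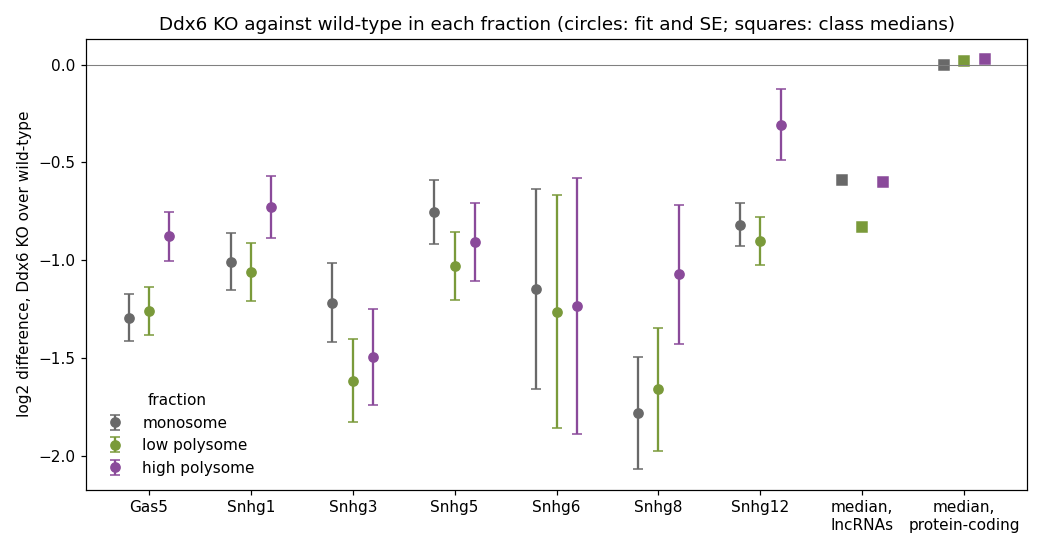
Log2 difference of KO over WT in the monosome (grey), low polysome (green) and high polysome (purple), as fitted value and SE for the 7 hosts and as class medians (squares) for the other 440 lncRNAs and for protein-coding genes. All 21 host values lie below 0, from -0.31 (Snhg12, high polysome) to -1.78 (Snhg8, monosome).

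The order of the 6 group means was the same for 6 of the 7 hosts. No share over all genes is given for this order or its overlaps, so they only describe the hosts. It ran from WT monosome through KO monosome, WT low polysome, KO low polysome and WT high polysome to KO high polysome. For Gas5, Snhg1, Snhg5 and Snhg12 no neighbouring groups in this order overlapped. For Snhg3 the KO monosome overlapped the WT low polysome and the KO low polysome overlapped the WT high polysome, and for Snhg8 only the latter pair overlapped. Snhg6 had the WT high polysome above the KO low polysome, and its last 4 groups each overlapped their neighbour.

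The level was below the WT mean in both KO clones. In the monosome the single clone 1 gradient retained 36.1% (Snhg8) to 68.1% (Snhg5) of the WT mean, and the clone 2 gradients retained 24.1% to 59.9%. Clone 1 had the highest KO value for 7 of 7 hosts in the monosome, for 6 of 7 in the low and 4 of 7 in the high polysome fraction. The share of all genes highest in clone 1 is not given, so these counts only describe the hosts. Clone 1 also had the higher Ddx6 counts. With a single gradient, clone 1 and gradient 1 cannot be told apart, and the difference between the clones was not tested.

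The third question was whether Ddx6 loss shifted the hosts along the gradient, which was tested as the KO difference less the WT difference. None of the 7 passed for high polysome over monosome in limma, where 17.8% of all genes did, 1357 higher and 901 lower. At an unadjusted p under 0.05 there were 2, Gas5 and Snhg12. The edgeR quasi-likelihood test and DESeq2 likewise called 0 and had 2 at an unadjusted p under 0.05. The share of all genes at the unadjusted cutoff is not given, so these counts only describe the hosts. In limma it cannot be below the 17.8% that passed after adjustment. Gas5 had a KO effect of 0.42 (95% interval 0.06 to 0.78, adjusted p = 0.099) and Snhg12 one of 0.51 (95% interval 0.07 to 0.95, adjusted p = 0.097), both toward the high polysome. Snhg8 had 0.71 (95% interval -0.24 to 1.66) and Snhg1 0.28 (95% interval -0.17 to 0.73). The values were -0.28 (95% interval -0.94 to 0.39) for Snhg3 and -0.15 (95% interval -0.69 to 0.38) for Snhg5, and the interval for Snhg6 ran from -1.81 to 1.64. A p that missed the threshold does not show that a host kept its distribution.

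Single settings moved 1 host past the threshold in this comparison. Gas5 passed without KO gradient 1, which is the only gradient of clone 1 (0.59, adjusted p = 0.024). Snhg8 passed in a fit of the 4 groups compared (0.62, adjusted p = 0.043). It also passed without the 3 libraries that stood apart (0.72), which were chosen after the values had been seen. With scaling by library size alone the median of all genes moved by -0.12 on the log2 scale and the calls over all genes turned from 1357 higher and 901 lower to 936 higher and 1386 lower.

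None of the 7 passed for low polysome over monosome either, where 4.71% of genes did in limma. The KO effects lay between -0.40 (Snhg3) and 0.12 (Snhg8), none had an unadjusted p under 0.05, and edgeR and DESeq2 gave 0 calls and 0 such values. Snhg3 passed without the 3 libraries that stood apart (-0.71), which were chosen after the values had been seen. For high over low polysome 0 of 7 passed, against 4.42% of genes in limma. All 7 fitted values were above 0 there, from 0.03 (Snhg6) to 0.60 (Snhg12), and Gas5 and Snhg12 had an unadjusted p under 0.05. This lean was not particular to the 7. The median was 0.42 over 12 other non-coding snoRNA hosts, described below, and 0.27 over the other 440 lncRNAs, against -0.0015 over all genes. The edgeR test gave 0 calls and 2 values with an unadjusted p under 0.05, and DESeq2 gave 0 calls and 1. No share of all genes is given at the unadjusted cutoff in either comparison, so these counts only describe the hosts.

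**Figure D5:**
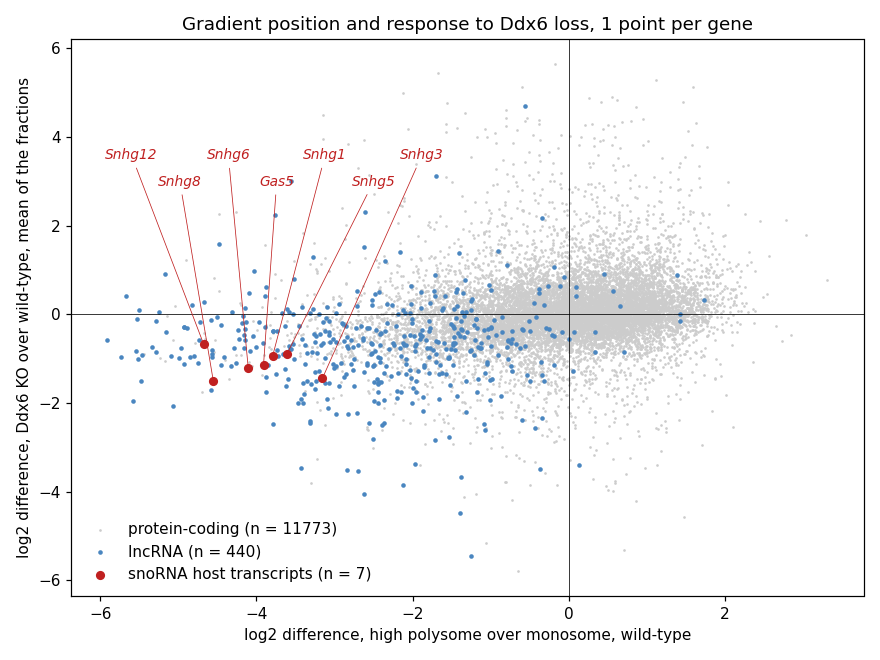
Each point is a gene, with the WT log2 difference of high polysome over monosome on the x axis and the log2 difference of KO over WT, averaged over the fractions, on the y axis. Protein-coding genes are grey, the other 440 lncRNAs blue and the 7 hosts red, and the hosts sit at the left between -4.67 and -3.15 and below 0, among other lncRNAs.

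Other non-coding snoRNA hosts were then counted. Of 15 further hosts that were listed, 13 were found in the table and 12 passed the filter. All 12 were called lower in the WT high polysome than in the monosome, against 32.2% of all genes, with a median of -4.04. Snhg11 (-5.14) and Snhg9 (-5.00) differed most, followed by 1810032O08Rik, the RefSeq synonym of Snhg16 (-4.66). Between KO and WT, averaged over the fractions, 11 of the 12 were lower, against 31.5% of all genes, with a median of -0.79. Snhg10 (-1.54, SE 0.33) and Snhg18 (-1.54, SE 0.16) differed most, while Snhg11 was at -0.04 and did not pass.

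The same was done for protein-coding hosts. Snhg11 is typed as protein-coding in M21 and is counted in both lists. Of 257 protein-coding genes that enclose an annotated snoRNA, 195 passed the filter, and 79 (40.5%) were lower and 56 higher in the WT high polysome than in the monosome, against 32.2% lower and 28.9% higher over all genes, with a median of -0.12. In KO against WT, averaged over the fractions, 94 (48.2%) were lower and 41 higher, against 31.5% lower and 30.6% higher over all genes, with a median of -0.22. For the KO effect on high polysome over monosome 54 were higher and 8 lower, beside 1357 higher and 901 lower among the 12705 genes, with a median of 0.42 against 0.02 over all tested genes, and the largest was that of Eef2, the translocation factor of the ribosome (2.17, SE 0.28).

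Other lncRNAs were described alongside, 440 of which passed the filter. In KO against WT, averaged over the fractions, 257 were lower and 36 higher, a share of 58.4% called lower against 31.5% of all genes, with a median of -0.66. Over protein-coding genes the median was 0.01. In the monosome the lncRNA median was -0.59, -0.83 in the low and -0.60 in the high polysome. A lower level in Ddx6 KO cells was therefore a feature of most called lncRNAs and not of the hosts alone. Of the 4 lncRNAs listed as nuclear, 3 were lower in the WT high polysome than in the monosome (Meg3 at -4.73, Malat1 at -4.31 and Neat1 at -3.68). Only Kcnq1ot1 was called lower in KO (-0.84, SE 0.16), with a median over the 4 of -0.07.

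The machinery that acts on these RNAs was taken from 2 lists. Of 10 nonsense-mediated decay factors, 4 were lower and 2 higher in KO averaged over the fractions, against 31.5% lower and 30.6% higher of all genes, with a median of -0.07. Upf2, a bridging factor of the decay complex, fell by 0.87 on the log2 scale (SE 0.13), and Smg1, the kinase that phosphorylates UPF1, fell by 0.87 (SE 0.17). Upf3b, which recognises the exon junction complex, differed by -0.77 (SE 0.12). For the KO effect on high polysome over monosome 2 of the 10 were called higher and 0 lower. Among the 12705 genes 1357 were called higher and 901 lower, 17.8% in either direction. The 2 were Upf1, the central helicase (1.28, SE 0.27), and Smg9 (0.99, SE 0.33). Of 8 core proteins of snoRNA particles, 5 (62.5%) were lower in KO, against 31.5% of all genes, and the others did not pass. The median was -0.36, and those called included Snu13 (-0.79, SE 0.09), Nop58 (-0.69, SE 0.08) and Nop10 (-0.56, SE 0.11). Of 5 mRNAs known as substrates of nonsense-mediated decay, 3 were higher and 2 lower in KO, against 30.6% and 31.5% of all genes. Gadd45a, a stress-induced regulator of growth arrest, was at 1.74 (SE 0.15), whereas the stress transcription factors Atf4 and Atf3 were at -1.18 (SE 0.09) and -0.83 (SE 0.19).

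Finally, genes were ranked by how closely their log2 CPM followed the mean standardised profile of the 7 hosts over the 18 libraries. Because fraction and genotype set most of this profile, the values describe likeness only. The hosts themselves correlated with it at r of 0.93 (Snhg6) to 0.99 (Snhg5). Among the 10 genes that were most like it and were not hosts of the list were Zfas1 (r = 0.99) and Snhg17 (r = 0.98), which were in the list of other non-coding hosts. The transcripts 1110038B12Rik (r = 0.99), 2410006H16Rik (r = 0.98) and Gm17491 (r = 0.98) and ENSMUSG00000097769, an identifier that M21 does not hold (r = 0.99), were also among them. Whether these transcripts enclose snoRNA genes was not checked. The remaining 4 were the protein-coding genes Eif4ebp2, a translation repressor that binds the cap-binding protein (r = 0.99), Cnpy1 (r = 0.98), 1700019D03Rik (r = 0.98) and Mrpl23, a protein of the mitochondrial ribosome (r = 0.98). Snhg17 was at -4.28 in the WT high polysome against the monosome and at -0.77 in KO against WT, and Zfas1 at -3.85 and -1.15, beside -3.91 and -1.14 for Gas5.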

How the data were processed

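Polysome fractions of 3 WT and 3 Ddx6 KO gradients were measured by 3′ end sequencing (QuantSeq 3′ FWD), in which reads mark transcript ends and counts do not scale with length. The authors trimmed reads with cutadapt 1.14, aligned them to mm10 with STAR 2.5.3a, kept unique alignments and, per the file headers, counted them by strand with featureCounts 1.5.3 on Gencode M14 basic without rRNA. The deposited values are raw counts for 51467 genes and 92 spike-ins, which held 1006 counts in all and were left out. Unique alignment may undercount hosts that have processed copies. No molecular identifiers are mentioned, so PCR copies are among the counts. Symbols came from Gencode M21, which lacked 193 identifiers.

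The 7 hosts and all lists were chosen with earlier results of these data known. All hosts were named, up to 3 genes of each list by size among those past the threshold, and the 10 genes most like the hosts. Genes with at least 3 CPM in at least 3 libraries were kept, as in the study's filter. TMM scaling used edgeR 4.0.16 and the voom model limma 3.58.1 under R 4.3.3, with 1 mean for each of the 6 groups. Tests were two-sided, and calls needed a p under 0.05 after Benjamini-Hochberg adjustment across 12705 genes. CPM in the text are TMM-scaled, and likeness is Pearson r of log2(CPM + 0.5). The script was tested on simulated data. DESeq2 1.42.0 and edgeR's quasi-likelihood test were alternatives, beside other scalings, no filter, equal depth, replicate blocks and left-out gradients.

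Fractions with the same number and genotype came from 1 gradient, so they are paired by design, and the main fit did not use this pairing. Their deviations from the group means correlated at r of -0.18 to 0.48 over genes, over 0.1 in 7 of 18 pairs. WT and KO gradients share only a number.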

Additional observations from a re-analysis of the deposited data

Results flagged for a closer look

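The table also counted the snoRNA genes inside the hosts, which no comparison above used. Over all 18 libraries they held 1738 counts in Gas5, 2996 in Snhg1, 5130 in Snhg3, 37 in Snhg6, 68 in Snhg8 and 4 in Snhg12. Gas5 itself held 58954 counts and Snhg12 7661. These sums were not tested against a background. In Snhg5 they held 2 counts. Of these snoRNA genes 4 reached 100 counts in a library, and all 4 passed the filter. Snora73b, inside Snhg3, had 246 to 703 counts in the monosome libraries. It was lower in the WT high polysome than in the monosome (log2 difference -3.41, SE 0.24, adjusted p = 1.7e-10 in limma) and lower in KO than in WT, averaged over the fractions (-0.70, SE 0.13, adjusted p = 0.00015). In KO against WT Gm24452 and Snord22, both inside Snhg1, were at -0.73 (SE 0.18) and -0.56 (SE 0.20), and Gm25789, inside Gas5, was at -0.25 (SE 0.17, adjusted p = 0.20 in limma). Annotated snoRNA genes share bases with host exons in Snhg1 (2 genes), Snhg3 (1) and Snhg12 (3). Of those named here this holds for Snord22, which shares 59 bases with Snhg1 exons, whereas Snora73b, Gm24452 and Gm25789 share 0. The source of the reads was not tested. No outlier test was run, since each group held only 3 libraries.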

How the results depend on the processing

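In the 10 comparisons of fractions within a genotype or of KO with WT, every alternative fitted for them left the count of hosts called within 1.5 times the main count. All 7 hosts kept their sign there. For the KO effect on high polysome over monosome 1 host passed instead of 0 in a fit of the groups compared and without the 3 libraries that stood apart, and 0 to 1 passed when a gradient was left out. For the KO effect on low polysome over monosome 1 passed without the 3 libraries. Leaving out a gradient gave 4 to 5 hosts for KO over WT in the high polysome and 5 to 6 for KO high over low polysome. Snhg6 was the host whose calls moved most. Without WT gradient 3 it passed for WT high over low polysome (-2.01) and for KO over WT in the monosome (-1.30) and low polysome (-2.26), it passed in the monosome at equal depth (-1.12), and edgeR called it for WT high over low polysome (-1.36) and for KO over WT in the low polysome (-1.45). With the fractions added up the median host difference of KO over WT was -0.65 in place of -1.14. All sign changes were in KO effects near 0, and their cause was not tested. For high polysome over monosome Snhg6 became 0.15 without the 3 libraries, and without a gradient Snhg1 ran from -0.0036 to 0.39 and Snhg6 from -0.43 to 0.26. For low polysome over monosome Gas5 became -0.037 by library size alone, -0.031 without the filter and -0.046 without the 3 libraries, and Snhg8 became -0.022 in edgeR, -0.015 in DESeq2 and -0.16 without the 3 libraries. Without a gradient this effect ran from -0.10 to 0.090 in Gas5, -0.17 to 0.081 in Snhg1, -0.96 to 0.53 in Snhg6, -0.40 to 0.38 in Snhg8 and -0.20 to 0.032 in Snhg12. For high over low polysome Snhg5 became -0.36 at equal depth and -0.071 without the 3 libraries, and Snhg6 became -0.022 with the size factors of DESeq2, -0.0044 by library size alone, -0.029 without the filter and -0.17 at equal depth. Without a gradient it ran from -0.26 to 0.43 in Snhg3, -0.17 to 0.28 in Snhg5 and -0.81 to 1.15 in Snhg6.

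Over all genes the calls for the KO effect on high polysome over monosome, 2258 here, ran from 1648 (equal depth) to 2994 (only the groups compared) and from 748 to 2618 without a gradient. For low polysome over monosome 598 became 287 (only the groups compared) to 1073 (DESeq2) and 29 to 819 without a gradient, and for high over low polysome 562 became 197 to 1023 and 0 to 807. Without the filter 15269 genes were called for WT high polysome over monosome instead of 7760. Blocking by gradient changed no call of a host in the comparisons of fractions and in the KO effects. It was not fitted for KO over WT, where each gradient is nested in its genotype. Blocking by replicate number changed no call of a host either. It left 0 hosts called for each KO effect and 7 for KO over WT averaged over the fractions. WT and KO libraries of the same number and fraction had deviations that correlated at r of -0.51 to 0.25, over 0.1 in 3 of 9 pairs, and 5 of 9 WT libraries correlated best with their own number. Pseudocounts of 0.1 and 2 CPM and scaling by library size alone moved the median ratios of the hosts by less than the SD between gradients. The limiting depth was that of the WT monosome libraries and of Snhg12 in the high polysome, with 54 to 94 counts.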
